A study of Homo sapiens with 23 samples.

Results

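The genes described here are 33 genes of cholesterol and fatty acid synthesis, out of 57477 genes counted in a human cardiac differentiation time course. They were chosen by name, with earlier results of these data known. H1-hESC, a human embryonic stem cell line labelled with genotype WT, was taken from the stem cell state at day 0 to cultures labelled cardiomyocyte at day 28, and RNA was sequenced at 8 time points. The labels call day 0 stem cell, day 1 mesendoderm, day 3 cardiac mesoderm, days 5 and 7 cardiac progenitors, and days 10, 14 and 28 cardiomyocyte. There were 3 libraries at each day except day 10, which had 2. All libraries come from this single line and the labels give no treatment other than the differentiation. They do not say whether replicates came from separate differentiations, so each p-value covers the spread among the libraries at hand and no more. The labels' growth protocol names mTesR1 medium for the stem cells and RPMI with insulin for the cardiomyocytes, so the medium and the day cannot be told apart. All 33 genes had a row in the table and passed the filter on low counts.

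Cells make cholesterol from acetyl-CoA through mevalonate, a set of small isoprenoid units joined into squalene, and a closing series of steps in which squalene is folded into lanosterol and trimmed to cholesterol. Fatty acids are built from the same acetyl-CoA, which ATP citrate lyase frees from citrate and acetyl-CoA carboxylase turns into malonyl-CoA for fatty acid synthase. Elongases and desaturases then lengthen the chains and add double bonds. Both routes are switched on by the sterol regulatory element binding proteins (SREBPs), transcription factors held in the membrane of the endoplasmic reticulum by their escort SCAP and by the INSIG proteins as long as sterols are plentiful, and released to the nucleus when sterols run low. Dividing cells need both products for new membrane, whereas the mature heart mainly burns fatty acids taken up from the blood.

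SREBPs bind the sterol regulatory element, and at many of their target promoters the factor NF-Y binds a CCAAT box close by, so the promoters of the members were searched for both. RefSeq promoter windows (GRCh38.p14, 250 bases before the start to 50 after it) were at hand for 29 of the 33 members, in 41 windows of 300 bases. Both strands were searched for TCACCCCAC and TCACNCCAC (2 forms of the sterol regulatory element, the second of which also finds every match of the first), CCAAT (the NF-Y box) and CACGTG (the E-box). CCAAT stood in at least 1 window of 22 of 29 members (75.9%), against 39.7% of the 27305 genes in the promoter table, or in 26 of 41 windows (63.4%) against 34.6% of all 35116 windows. CACGTG was found for 4 of 29 members (13.8%, against 8.78% of genes). TCACCCCAC was found for 1 of 29 (3.45%, against 0.535% of genes), and TCACNCCAC for the same gene (1.39% of genes). A match is a description of the letters in these windows and does not show binding. The 5 stretches below are read 5′ to 3′ from the strand of the gene, with matches in capitals. SREBF2, which encodes an SREBP, is shown because it held the match to the strict element, 133 bases before its start and beside a CCAAT box on the other strand (ATTGG). The others are those of MSMO1 and INSIG1, whose mRNA fell to day 7 and rose again by day 14, and of STARD4 and INSIG2, which were highest at day 28. Only the part of each window outside the exons of protein-coding genes is printed.
SREBF2: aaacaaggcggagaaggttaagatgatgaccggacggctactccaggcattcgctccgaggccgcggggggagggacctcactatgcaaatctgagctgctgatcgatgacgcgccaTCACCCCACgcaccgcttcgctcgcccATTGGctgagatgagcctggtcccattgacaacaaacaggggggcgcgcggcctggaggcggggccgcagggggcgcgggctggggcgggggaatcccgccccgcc
MSMO1: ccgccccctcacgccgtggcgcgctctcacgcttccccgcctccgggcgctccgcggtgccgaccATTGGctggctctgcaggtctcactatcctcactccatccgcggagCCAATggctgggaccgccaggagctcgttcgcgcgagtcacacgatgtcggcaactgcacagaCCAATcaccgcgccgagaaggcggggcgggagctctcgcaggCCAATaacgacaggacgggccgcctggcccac
INSIG1: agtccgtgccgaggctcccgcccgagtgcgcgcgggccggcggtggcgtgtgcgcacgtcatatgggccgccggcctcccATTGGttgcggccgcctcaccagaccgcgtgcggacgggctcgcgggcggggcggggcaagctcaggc
STARD4: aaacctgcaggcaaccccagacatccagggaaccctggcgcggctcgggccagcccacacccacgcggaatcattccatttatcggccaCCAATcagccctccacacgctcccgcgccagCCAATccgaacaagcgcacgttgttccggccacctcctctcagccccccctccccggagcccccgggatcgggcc
INSIG2: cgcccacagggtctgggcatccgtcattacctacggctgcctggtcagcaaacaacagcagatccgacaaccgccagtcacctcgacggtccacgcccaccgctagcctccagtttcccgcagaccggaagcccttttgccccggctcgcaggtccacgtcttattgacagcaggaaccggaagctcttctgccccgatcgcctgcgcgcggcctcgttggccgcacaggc
In GRCh38, the SREBF2 stretch lies at chr22:41832855-41833104 on the plus strand, the MSMO1 stretch lies at chr4:165327419-165327666 on the plus strand and the INSIG1 stretch lies at chr7:155297628-155297775 on the plus strand. Likewise, the STARD4 stretch lies at chr5:111512591-111512785 on the minus strand and the INSIG2 stretch lies at chr2:118088221-118088451 on the plus strand. The MSMO1 stretch holds 4 CCAAT boxes, 3 of them as CCAAT and 1 as ATTGG, the STARD4 stretch holds 2 and the INSIG1 stretch 1. The INSIG2 stretch holds none of the motifs.

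Libraries held from 4330334 counts (day 5 replicate 3) to 22089595 counts (day 0 replicate 2), and values are given as CPM (counts scaled to a common library size) with TMM scaling, in replicate order. The markers named here were high on days that carry their label, but some were high on other days too. The stem cell gene POU5F1 stood at 1547, 1645 and 1735 CPM at day 0 and the mesendoderm gene TBXT at 529, 418 and 589 CPM at day 1. Later came the cardiac mesoderm gene MESP1 at 26.6, 50.5 and 95.4 CPM at day 3 and the troponin gene TNNT2 at 4079, 4149.6 and 3532 CPM at day 28. POU5F1 was still at 2050, 1358 and 2277 CPM at day 1. LIN28A, another stem cell gene, read 3095, 1654 and 3614 CPM at day 5, and TNNT2 already read 1737, 2035 and 1886.5 CPM at day 7. Libraries of 1 day differed most along an axis that held 35.6% of the variance within days over all genes. On it, day 5 replicate 2 and day 5 replicate 3 lay at the ends, and day 3 replicate 1 and day 1 replicate 2 also lay apart from the other libraries of their day. The 2 libraries of day 10 lay on either side of their mean, which says nothing of which one is apart. Where 4 libraries are said to be left out, they are those with the highest score of days 1, 3, 5 and 10 (day 1 replicate 2, day 3 replicate 1, day 5 replicate 2 and day 10 replicate 1), all on 1 side of the axis, and day 5 replicate 3 at the other end was kept. Gene loadings on this axis ran with GC content (Spearman's rho -0.75 across 21987 genes, which are not independent replicates). Members of low GC content were spread widely at days 1, 3, 5 and 10, while on this axis the libraries of days 0, 7, 14 and 28 lay close together. The results below lean on those 4 days. Their p-values still rest on a shared estimate of spread per gene over all 23 libraries, those of days 1, 3, 5 and 10 included. Over all genes, log CPM of libraries of 1 day correlated at 0.973 to 0.981 (day 7) and 0.975 to 0.977 (day 14). That was no closer than day 1, at 0.979 to 0.990. Members of high GC content could be spread too, as FASN (65.3% GC) was at day 5, at 289, 132 and 574 CPM.

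Most members fell between the stem cell state and the cultures at day 7, part of them rose again by day 14, and the majority ended below their starting level at day 28. A gene is called higher or lower at an adjusted p under 0.05 in edgeR's quasi-likelihood test, with Benjamini-Hochberg adjustment over 22245 genes. From day 0 to day 7, 24 of 33 members fell and 2 rose, where 54.1% of all genes tested were called (25.8% lower and 28.3% higher). The median member changed by -1.51 on the log2 scale and the median gene by 0.07. From day 7 to day 14, 13 members rose and 4 fell (41.5% of all genes called, 22% higher), with a median of 0.23 for members and 0.06 for all genes. The members' median of this step was unsteady, at 0.04 without day 14 replicate 3, 0.05 without day 7 replicate 2, 0.13 without day 7 replicate 3, 0.15 without day 14 replicate 2, 0.12 scaled by library totals, 0.16 with upper-quartile factors and 0.57 with trends on GC content and length removed from every library. From day 14 to day 28, 1 rose and 3 fell (15.7% of all genes called, 7.96% higher and 7.78% lower). Across the whole course, day 28 against day 0, 21 fell and 5 rose (60.5% of all genes called, 28.4% lower and 32.1% higher), with a median of -1.28 for members and 0.09 for all genes. Scaled by library totals, the median gene moved by 0.27 from day 0 to day 7 and by -0.23 from day 14 to day 28. The counts were then 3 higher and 23 lower for day 7 against day 0 and 0 higher and 5 lower for day 28 against day 14. These comparisons share libraries, and those of day 7 against day 0 and day 14 against day 7 were added after the values had been seen.

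**Figure D1:**
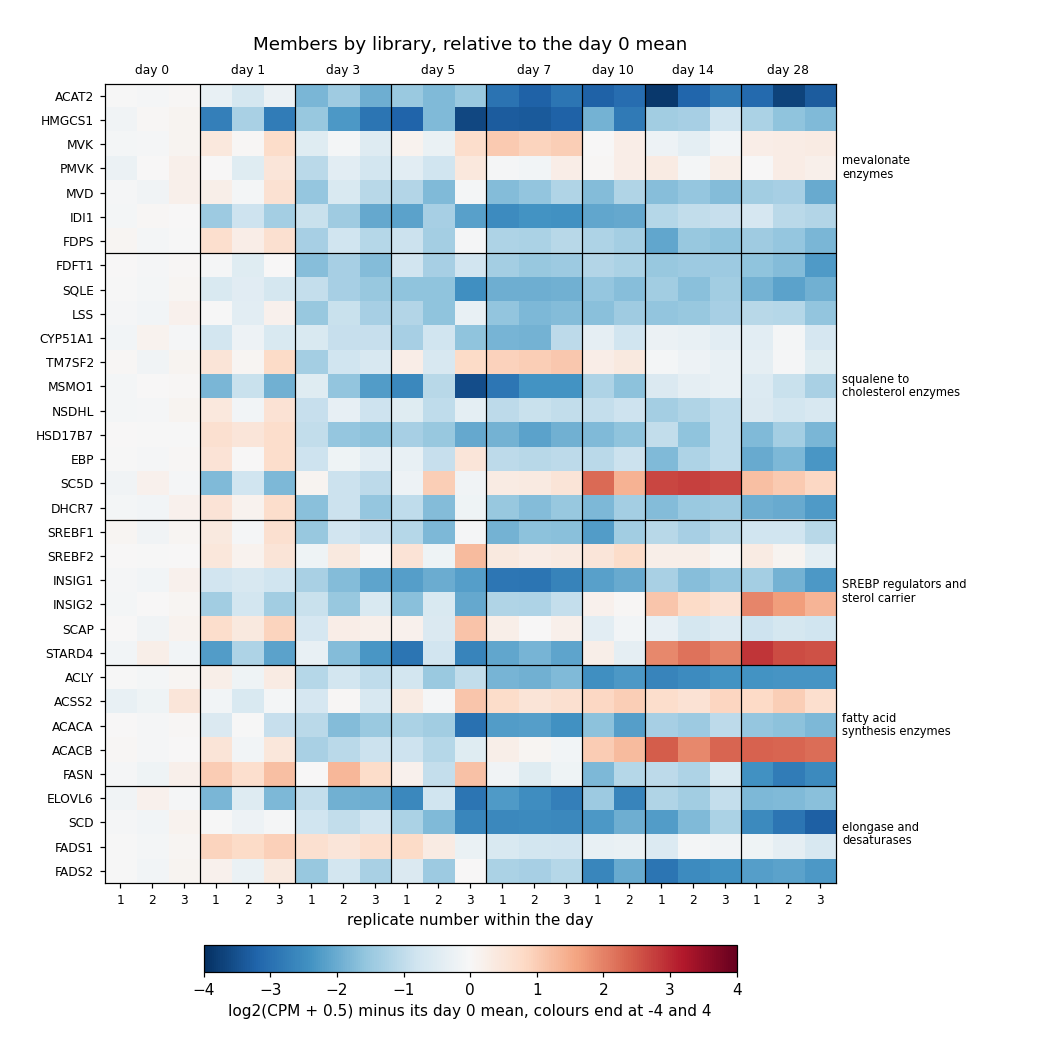
Each row is 1 of the 33 members and each column 1 of the 23 libraries, grouped by day with the replicate number on the x axis. Colour gives log2(CPM + 0.5) minus the mean of that value at day 0, blue for lower and red for higher, and most rows turn blue by day 7 while STARD4, INSIG2, SC5D and ACACB turn red from day 10 or 14.

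Summed over the 18 sterol synthesis enzymes (from ACAT2 to DHCR7), day 0 had 2779 ± 125 CPM and day 7 had 944 ± 37.5 CPM (SD, n = 3). Day 14 had 1728 ± 102 CPM and day 28 had 1122 ± 161 CPM. The 9 enzymes of fatty acid synthesis, elongation and desaturation summed to 4625 ± 337 CPM at the start, to 1404 ± 51.1 CPM by day 7 and then to 1608 ± 317 CPM (day 14) and 1145 ± 118 CPM (day 28). The sterol sum at day 14 lay above every library of day 7, at 1632.6 to 1835 against 909 to 984 CPM. SC5D held the largest part of that difference, with 132 ± 10.4 CPM at day 7 and 645 ± 16.4 CPM at day 14. Without SC5D the sum of the 17 other enzymes was 812 ± 29.3 CPM at day 7 and 1083 ± 102 CPM at day 14, at 782 to 839.96 against 999.7 to 1197 CPM. The fatty acid sum at day 14 spread from 1331 to 1954 CPM and overlapped day 7, at 1345 to 1435 CPM. SCD alone made up the largest part of the fatty acid sum at day 0. By mean CPM, 12 members were highest at day 0 and 12 at day 1, 4 at day 28, 2 at day 7 and 1 each at days 5, 10 and 14, and the lowest day was day 7 for 11 members and day 28 for 8. In bulk RNA, fewer cells of a type and less RNA per cell cannot be told apart.

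**Figure D2:**
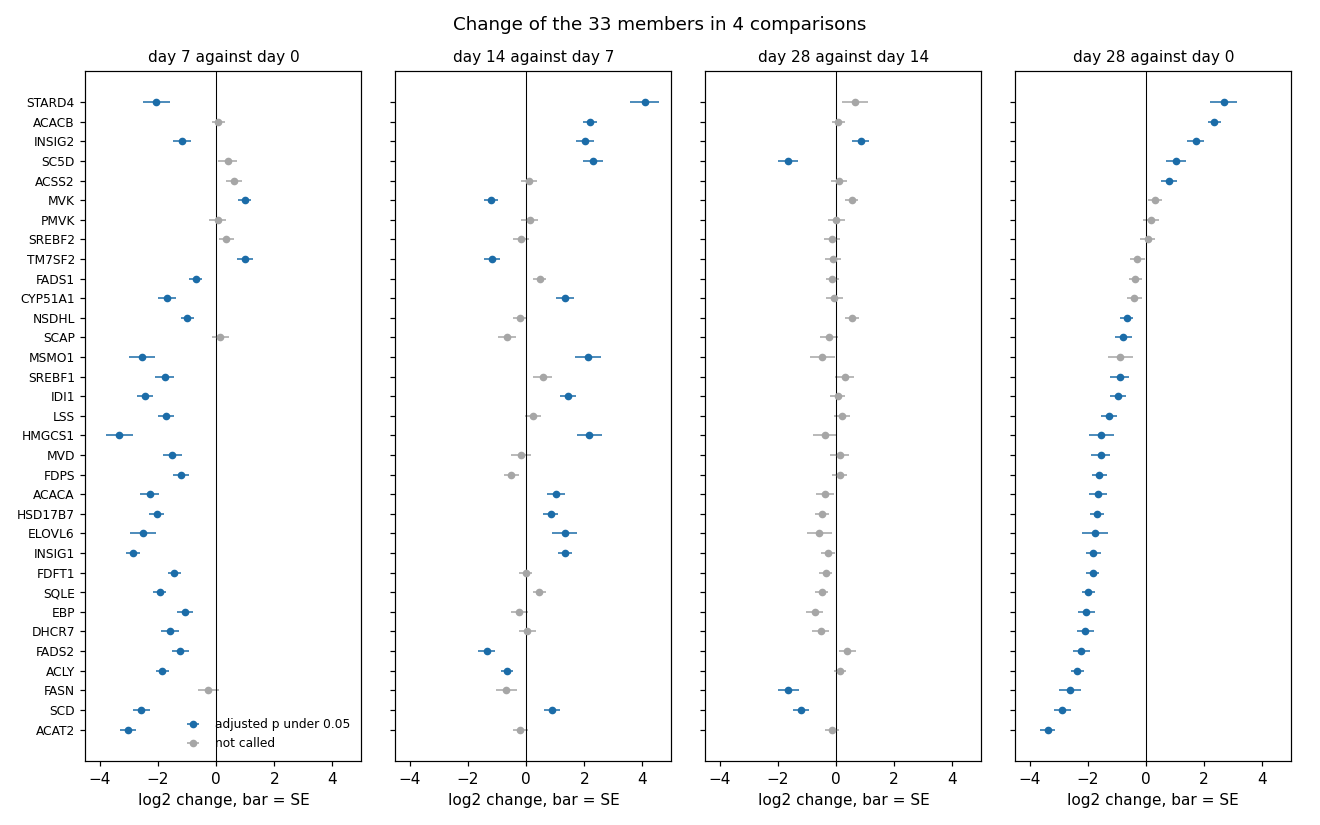
Points give the log2 change of each of the 33 members on the x axis, with bars of 1 SE, in 4 comparisons, ordered by the change from day 0 to day 28. Blue marks an adjusted p under 0.05, and the left panel holds 24 members called lower while the panel of day 14 against day 7 holds 13 called higher.

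In the mevalonate branch HMGCS1 and IDI1 rose again after day 7, ACAT2, MVD and FDPS had no called rise, and the kinases MVK and PMVK took other courses. HMGCS1 (ENSG00000112972, chr5:43287470-43313512, minus strand) encodes the synthase that condenses acetyl-CoA and acetoacetyl-CoA at the head of the pathway. It stood at 386, 439 and 457 CPM at day 0, 41.6, 41.1 and 44.9 at day 7, 161, 169.5 and 245 at day 14 and 178, 139 and 125 at day 28. The 3 libraries of day 7 were the lowest of these 4 days and those of day 0 the highest, with no overlap between day 7 and day 14. It fell from day 0 to day 7 (log2 change -3.33, SE 0.45, edgeR adjusted p = 1.13e-06) and rose from day 7 to day 14 (log2 change 2.17, SE 0.43, edgeR adjusted p = 0.000434). At day 28 it was still below day 0 (log2 change -1.54, SE 0.42, edgeR adjusted p = 0.00283). HMGCS1 also had the largest fall of all members within the first day (log2 change -2.11, SE 0.43, edgeR adjusted p = 0.000692), when its libraries read 63.3, 172 and 61.3 CPM. The middle one is the library that stood apart.

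IDI1 encodes the isomerase that converts one isoprenoid unit into the other, and it moved in the same directions. Its values were 145, 158 and 155 CPM at day 0, 26.5, 28.5 and 28.0 at day 7, 68.6, 76.2 and 81.0 at day 14 and 94.8, 72.3 and 67.6 at day 28. Every library of day 14 lay above day 7 and below day 0. The fall to day 7 was -2.46 and the rise to day 14 was 1.44 on the log2 scale (edgeR adjusted p = 7.13e-08 and 0.00026).

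ACAT2, which encodes the cytosolic acetoacetyl-CoA thiolase of the first step, fell and stayed low. It read 237, 229 and 248 CPM at day 0, 66.9, 88.9 and 60.6 at day 3, 30.6, 24.9 and 31.1 at day 7, 16.0, 25.8 and 33.4 at day 14 and 27.3, 17.6 and 23 at day 28. The groups of days 0, 3 and 7 did not overlap, and days 7, 14 and 28 lay in one range. Its change from day 0 to day 28 was the largest fall among the members (log2 change -3.39, SE 0.27, edgeR adjusted p = 5.94e-11), whereas day 14 against day 7 was not called (log2 change -0.20, edgeR adjusted p = 0.529). TCP1 on the opposite strand shares 17.2% of the ACAT2 exon bases and had 100073 counts over all libraries against 29243 for ACAT2. HMGCS1, IDI1 and FDPS share 37.7%, 15.0% and 18.6% of their exon bases with opposite-strand genes that had 250, 20 and 868 counts. The strand setting of the counting is not given in the sources used here, so whether reads of such pairs were told apart is not known.

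MVD and FDPS, the decarboxylase that makes the first isoprenoid unit and the synthase that joins such units to farnesyl diphosphate, also ended low without a called rise after day 7. With GC and length trends removed, however, MVD was higher at day 14 than at day 7 (log2 change 0.57, edgeR adjusted p = 0.00398). MVD went from 82.8, 77.0 and 98.5 CPM at day 0 to 25.5, 28.3 and 36.7 at day 7 and 32.4, 34.1 and 20.8 at day 28 (log2 change -1.57, SE 0.33, edgeR adjusted p = 0.00023). FDPS went from 129, 116 and 122 CPM at day 0 to 51.8, 50.4 and 55.7 at day 7 and 45.2, 41.4 and 33.9 at day 28 (log2 change -1.61, SE 0.27, edgeR adjusted p = 1.09e-05). For both genes all libraries of day 28 lay below all those of day 0. Their main drop was between day 1 and day 3, at -1.33 and -1.62 (edgeR adjusted p = 0.00248 and 3.35e-05).

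The 2 kinases between HMGCS1 and MVD did not follow. MVK, mevalonate kinase, was highest at day 7, with 51.0, 45.2 and 48.5 CPM against 22.9, 23.8 and 26.6 at day 0 and 21.3, 18.5 and 22.6 at day 14. Day 7 overlapped neither day 0 nor day 14, and MVK rose and then fell (log2 change 0.98, SE 0.23, edgeR adjusted p = 0.00101, and log2 change -1.21, SE 0.24, edgeR adjusted p = 0.000349). PMVK, phosphomevalonate kinase, had 11.3, 13.5 and 15.6 CPM at day 0 and 13.5, 16.4 and 15.5 at day 28, 2 ranges that overlapped (log2 change 0.17, edgeR adjusted p = 0.619). Of the 7 genes of this branch, 5 fell from day 0 to day 28 and MVK and PMVK were not called (60.5% of all genes called, 28.4% lower and 32.1% higher), with a median log2 change of -1.54.

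From squalene synthase to cholesterol, 7 of 11 enzymes fell from day 0 to day 28 and 1 rose (60.5% of all genes called, 28.4% lower and 32.1% higher), with a median log2 change of -1.28. FDFT1 (squalene synthase), SQLE (squalene epoxidase, a rate-limiting enzyme of the branch) and LSS (which closes the ring to lanosterol) fell by day 7 and had no called rise afterwards. SQLE stood at 358, 344 and 377 CPM at day 0, 93.4, 91.8 and 95.1 at day 7, 137, 111 and 136 at day 14 and 97.0, 81.1 and 94.7 at day 28. Its libraries at day 14 lay above those at day 7 without overlap, but the difference was not called (log2 change 0.46, edgeR adjusted p = 0.106), while the fall over the whole course was (log2 change -1.98, SE 0.23, edgeR adjusted p = 5.84e-08). FDFT1 went from 513, 492 and 523 CPM at day 0 to 168, 154 and 107 at day 28 (log2 change -1.83, SE 0.23, edgeR adjusted p = 1.52e-07), and LSS from 187, 179 and 217 to 89.1, 87.2 and 64.4 CPM (log2 change -1.28, SE 0.27, edgeR adjusted p = 0.000235). Neither gene had a library of day 28 within its day 0 range.

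MSMO1, the methylsterol monooxygenase that strips methyl groups from the sterol ring, had the largest fall to day 7 of this branch and rose again by day 14. Its level was 198, 209 and 214 CPM at day 0, 27.5, 39.5 and 38.8 at day 7, 139, 162 and 168 at day 14 and 143, 110.5 and 83.6 at day 28. No library of day 7 reached the lowest of days 14 or 28. It fell to day 7 (log2 change -2.55, SE 0.45, edgeR adjusted p = 4.26e-05) and rose to day 14 (log2 change 2.14, SE 0.45, edgeR adjusted p = 0.000661). Every library of day 28 lay below those of day 0, but that difference was not called (log2 change -0.88, edgeR adjusted p = 0.0776). CYP51A1, the lanosterol demethylase, also fell to day 7 (log2 change -1.69) and rose to day 14 (1.34), but it rested on 1672 counts over all libraries. In GENCODE v44 it shares 68.2% of its exon bases with another gene on the same strand (ENSG00000285772) that has no row in the table.

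SC5D, sterol-C5-desaturase, was the only enzyme of this branch called higher at day 28 than at day 0. It stood at 90.5, 112 and 97.3 CPM at day 0, 125, 128 and 144 at day 7, 479 and 259.8 at day 10, 633, 663 and 638 at day 14 and 229, 205 and 177 at day 28. Day 14 lay above every other day without overlap, and day 28 lay below day 14 but above day 0. It rose from day 7 to day 14 (log2 change 2.28, SE 0.35, edgeR adjusted p = 1.85e-05) and fell from day 14 to day 28 (log2 change -1.66, SE 0.34, edgeR adjusted p = 0.000922). Day 28 against day 0 was also called (log2 change 1.03, SE 0.33, edgeR adjusted p = 0.00973), and was 0.35 (adjusted p = 0.0448) with GC and length trends removed. Within the first day SC5D had fallen (log2 change -1.39, SE 0.34, edgeR adjusted p = 0.00329).

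TM7SF2, a sterol reductase, was like MVK highest at day 7, with 71.4, 74.8 and 80.0 CPM against 39.1, 33.9 and 40.9 at day 0 and 35.5, 33.05 and 30.4 at day 14. It rose by 0.99 and then fell by 1.19 on the log2 scale (edgeR adjusted p = 0.00352 and 0.00166). The other late enzymes ended low. EBP, the sterol isomerase, went from 80.6, 79.7 and 85.4 to 20.0, 23.3 and 15.9 CPM between day 0 and day 28 (log2 change -2.05, SE 0.30, edgeR adjusted p = 1.53e-06). DHCR7, which reduces the last sterol intermediate to cholesterol, went from 128, 123 and 152 to 34.1, 33.1 and 27.6 CPM (log2 change -2.09, SE 0.30, edgeR adjusted p = 1.68e-06). HSD17B7, a 3-ketosteroid reductase, dropped mainly from day 1 to day 3 (log2 change -2.00, SE 0.24, edgeR adjusted p = 4.61e-07), from 51.5, 45.6 and 53.5 to 16.3, 10.9 and 10.2 CPM. Its partner in demethylation NSDHL ended at -0.66 (adjusted p = 0.013), a call lost without day 0 replicate 3, day 28 replicate 2 or day 28 replicate 3, with a highest adjusted p of 0.0755. For EBP, 36.4% of the exon bases are shared with a gene of GENCODE v44 (ENSG00000286268) that has no row in the table.

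**Figure D3:**
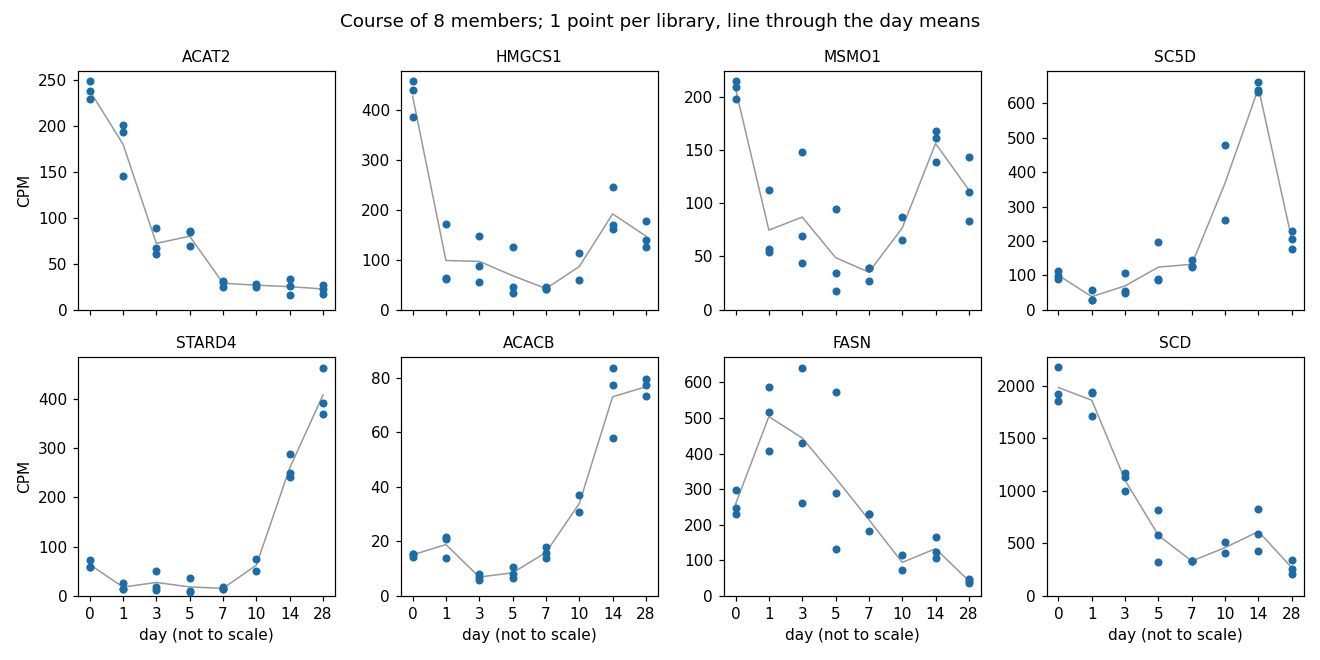
Each panel plots the CPM of 1 of 8 members, with a point per library and a line through the day means, over the 8 days spaced evenly on the x axis. HMGCS1 and MSMO1 dip at day 7 and come back, ACAT2, FASN and SCD end low, SC5D peaks at day 14, and STARD4 and ACACB are highest at days 14 and 28.

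Among the regulators the 2 SREBP genes differed. SREBF2, whose product mainly drives cholesterol genes, was called in 0 of 10 comparisons by edgeR (1 at an unadjusted p under 0.05, day 5 against day 3, and 0 by DESeq2). It had 155, 149 and 152 CPM at day 0, 201, 187 and 195 at day 7, 180.1, 179 and 159 at day 14 and 192, 164 and 117 at day 28. Day 28 lay around day 0 (log2 change 0.05, SE 0.27, edgeR adjusted p = 0.883). SREBF1, whose product mainly drives fatty acid genes, stood at 46.9, 40.2 and 46.8 CPM at day 0 and 11.6, 14.0 and 13.6 at day 7 and fell (log2 change -1.77, SE 0.33, edgeR adjusted p = 8.27e-05). By day 28 it read 25.4, 25.7 and 20.3 CPM (log2 change -0.91, SE 0.32, edgeR adjusted p = 0.0161), a call lost without day 0 replicate 3 or day 28 replicate 3 (highest adjusted p = 0.0892). Per length (RPKM, the CPM divided by the exon length in kilobases), the ratio of SREBF1 to SREBF2 was 0.286 ± 0.0196 at day 0. It was 0.0658 ± 0.00861 by day 7 and 0.151 ± 0.0204 at day 28 (SD, n = 3). SREBF2 was the more abundant of the pair throughout. SCAP, the escort of both proteins, had 113, 103 and 123 CPM at day 0 and 63.1, 69.0 and 65.2 at day 28 (log2 change -0.78, SE 0.31, edgeR adjusted p = 0.0307). This call was lost when any 1 of the 6 libraries was left out (highest adjusted p = 0.107).

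The INSIG genes, which encode the proteins that retain SCAP, exchanged places. INSIG1, itself an SREBP target, read 131, 127 and 152 CPM at day 0, 17.9, 17.6 and 20.8 at day 7, 55.0, 41.6 and 46.0 at day 14 and 52.9, 36.7 and 27.3 at day 28. Days 0, 7 and 14 did not overlap one another. It fell to day 7 (log2 change -2.87, SE 0.25, edgeR adjusted p = 9.24e-10), rose to day 14 (log2 change 1.34, SE 0.25, edgeR adjusted p = 0.00017) and ended below day 0 (log2 change -1.81, SE 0.24, edgeR adjusted p = 4.85e-07). INSIG2 read 17.9, 19.0 and 19.8 CPM at day 0, 7.85, 7.83 and 9.44 at day 7, 41.2, 32.6 and 28.6 at day 14 and 74.3, 61.3 and 49.4 at day 28. Each of these days lay apart from the others, with day 7 lowest and day 28 highest, and INSIG2 ended above its start (log2 change 1.70, SE 0.30, edgeR adjusted p = 2.36e-05). The step from day 14 to day 28 was called at 0.85 (adjusted p = 0.0483). It was lost under 8 of the alternatives, 4 of which leave out a library (day 14 replicate 2 or 3, day 28 replicate 1 or 2), with a highest adjusted p of 0.167. Per length, INSIG1 was 7.82 ± 0.522 times as abundant as INSIG2 at day 0, 2.42 ± 0.0422 times at day 7 and 0.672 ± 0.0887 times at day 28 (SD, n = 3).

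**Figure D4:**
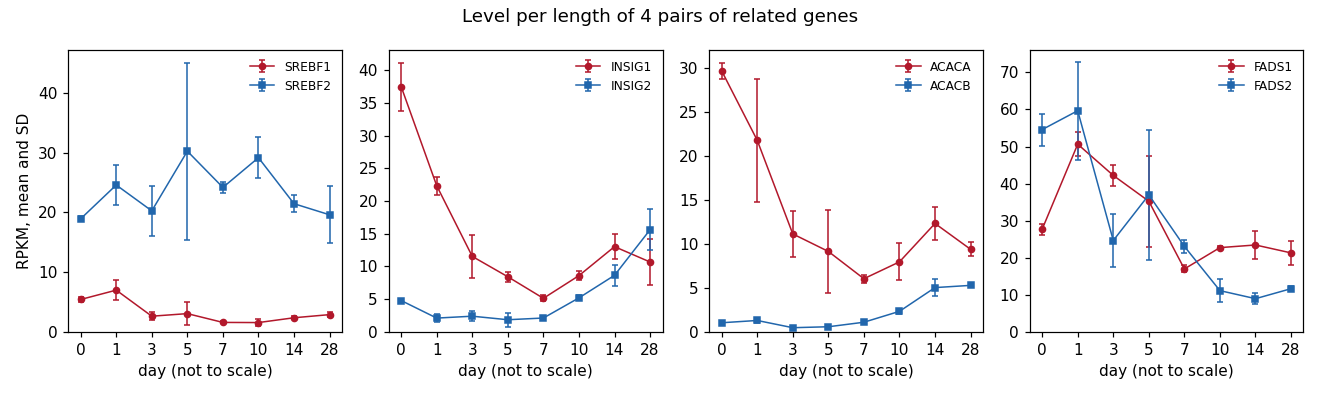
Each panel plots the mean level per length (RPKM, bars of 1 SD over the 2 or 3 libraries of a day) of 2 related genes against the day. SREBF2 stays above SREBF1, the INSIG1 and INSIG2 lines cross by day 28, the gap between ACACA and ACACB narrows, and FADS1 and FADS2 cross more than once.

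STARD4, a soluble carrier that moves cholesterol between membranes, had the largest rise of all members. It stood at 58.8, 73.8 and 58.5 CPM at day 0, 14.5, 17.1 and 14.2 at day 7, 75.1 and 49.6 at day 10, 241, 287 and 249.7 at day 14 and 462, 392 and 369 at day 28. From day 7 on, every later day lay above the one before it without overlap. The rise from day 7 to day 14 was 4.08 on the log2 scale (SE 0.50, edgeR adjusted p = 1.38e-06), after a fall from day 0 to day 7 (log2 change -2.06, SE 0.47, edgeR adjusted p = 0.000614). Day 28 against day 0 gave 2.68 (SE 0.46, adjusted p = 2.1e-05). STARD4 has the lowest GC content of the members, at 34.4%. With GC and length trends removed from every library, its rise from day 7 to day 14 was 3.01 and its rise over the whole course 2.10, and both were called.

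In fatty acid synthesis, ACLY, FASN and ACACA fell from day 0 to day 28 while ACACB and ACSS2 rose (60.5% of all genes called, 28.4% lower and 32.1% higher). ACLY, ATP citrate lyase, read 931, 880.1 and 995 CPM at day 0, 255, 245 and 273 at day 7, 148, 162 and 179 at day 14 and 178, 179.9 and 182 at day 28 (log2 change -2.38, SE 0.22, edgeR adjusted p = 1.26e-09). Days 0, 7 and 14 lay apart, each lower than the one before. FASN, fatty acid synthase, took a different path, with 246, 229.7 and 297 CPM at day 0, 515, 407 and 588 at day 1, 230.5, 182 and 229.8 at day 7, 124, 108 and 167 at day 14 and 47.2, 36.7 and 43.1 at day 28. It was highest early and was not called from day 0 to day 7 (log2 change -0.27, edgeR adjusted p = 0.547). It fell late, from day 14 to day 28 (log2 change -1.65, SE 0.37, edgeR adjusted p = 0.00246) and over the whole course (log2 change -2.61, SE 0.38, edgeR adjusted p = 1.95e-06).

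From day 0 to day 28 the 2 acetyl-CoA carboxylases changed in opposite directions, although both rose from day 7 to day 14. ACACA, the cytosolic form that feeds fatty acid synthase, read 386, 374 and 398 CPM at day 0, 80.8, 82.9 and 72.2 at day 7, 153, 139.8 and 188 at day 14 and 132, 123 and 112 at day 28 (log2 change -1.66, SE 0.32, edgeR adjusted p = 7.1e-05). ACACB, the form at the mitochondrial membrane whose malonyl-CoA restrains fatty acid entry into mitochondria, read 15.4, 14.4 and 15.3 CPM at day 0, 17.9, 15.9 and 14.0 at day 7, 30.7 and 37.0 at day 10, 83.7, 58.0 and 77.3 at day 14 and 79.5, 77.3 and 73.2 at day 28. The rise of ACACA from day 7 to day 14 (log2 change 1.03, SE 0.31, edgeR adjusted p = 0.0116) was lost without any 1 library of day 7 or without day 14 replicate 3 (highest adjusted p = 0.0864). For ACACB, no library of day 10 reached day 14, and no library of day 7 reached day 10. ACACB rose from day 7 to day 14 (log2 change 2.20, SE 0.24, edgeR adjusted p = 2.25e-07) and over the whole course (log2 change 2.35, SE 0.23, edgeR adjusted p = 3.22e-09). Per length the ratio of ACACA to ACACB went from 28.6 ± 0.590 at day 0 to 5.53 ± 0.424 at day 7 and 1.77 ± 0.0730 at day 28 (SD, n = 3). At day 28 ACACA was still the more abundant. ACSS2, which makes acetyl-CoA from acetate, stood at 33.3, 36.2 and 57.0 CPM at day 0 and 72.2, 80.8 and 66.1 at day 28 (log2 change 0.79, SE 0.27, edgeR adjusted p = 0.015), a call lost without day 0 replicate 1 (adjusted p = 0.0831).

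SCD, the stearoyl-CoA desaturase that makes oleate, was the most abundant member at day 0, at 378 ± 32.6 RPKM. Its libraries read 1925, 1853 and 2178 CPM at day 0, 1133, 999 and 1169 at day 3, 329, 336 and 329 at day 7, 423, 587 and 829 at day 14 and 339, 259 and 204 at day 28. It fell to day 7 (log2 change -2.58, SE 0.29, edgeR adjusted p = 5.18e-08), and the 3 libraries of day 14 were all above day 7 but spread widely. The rise to day 14 was called (log2 change 0.89, SE 0.28, edgeR adjusted p = 0.0128) and lost without any 1 of 5 of the 6 libraries, all but day 14 replicate 1 (highest adjusted p = 0.2). Its later fall to day 28 (log2 change -1.20, SE 0.28, edgeR adjusted p = 0.00328) was lost without day 14 replicate 3 (adjusted p = 0.0586). The fall over the whole course was called under every alternative (log2 change -2.89, SE 0.29, edgeR adjusted p = 5.01e-09).

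ELOVL6, which lengthens palmitate to stearate, read 132, 164 and 138 CPM at day 0, 29.6, 25.2 and 21.3 at day 7, 62.1, 54.0 and 74.4 at day 14 and 40.9, 42.2 and 44.8 at day 28 (log2 change -1.76, SE 0.44, edgeR adjusted p = 0.00111). Day 7 was the lowest of these days and none of the 4 overlapped. FADS1 and FADS2, neighbours on chromosome 11 that encode the front-end desaturases of polyunsaturated fatty acids, parted. FADS2 stood at 564, 538 and 626 CPM at day 0, 238, 229 and 263 at day 7, 75.8, 101 and 107 at day 14 and 123, 129 and 117 at day 28 (log2 change -2.23, SE 0.30, edgeR adjusted p = 5.15e-07). FADS1 stood at 283, 269 and 298 CPM at day 0, 526, 481 and 547 at day 1, 185, 171 and 166 at day 7 and 249, 221 and 183 at day 28. It rose in the first day (log2 change 0.87, SE 0.23, edgeR adjusted p = 0.00594), and day 28 lay below day 0 in every library but was not called (log2 change -0.38, edgeR adjusted p = 0.152). Per length the ratio of FADS1 to FADS2 was 0.508 ± 0.0144 at day 0 (SD, n = 3). The same ratio read 2.62 ± 0.110 in the day 14 libraries and 1.83 ± 0.240 in those of day 28. The exons of the pair overlap by 490 bases on opposite strands.

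The first 2 steps called partly different members. From day 0 to day 1, 9 members fell and 3 rose (31.8% of all genes called, 16.5% lower and 15.3% higher). The 9 were HMGCS1, IDI1, SQLE, MSMO1, SC5D, INSIG1, INSIG2, STARD4 and ELOVL6. From day 1 to day 3, 20 fell and 1, SC5D, rose (37.2% of all genes called, 19% lower and 18.2% higher). HMGCS1, IDI1, MSMO1, INSIG2, STARD4 and ELOVL6, which had fallen in the first day, were not called in this second step, with log2 changes from -0.29 to 0.61. The other 3 of the 9 were called again: SQLE and INSIG1 fell further and SC5D rose. DHCR7 and FDFT1 were called in the second step and not in the first. DHCR7 read 128, 123 and 152 CPM at day 0, 194, 147 and 219.8 at day 1 and 41.6, 73.7 and 45.8 at day 3 (log2 change -1.80, SE 0.30, edgeR adjusted p = 4.05e-05). FDFT1 read 513, 492 and 523, then 491, 365 and 520.2, then 154, 202 and 154 CPM (log2 change -1.43, SE 0.22, edgeR adjusted p = 2.03e-05). For both, every library of day 3 lay below every library of day 1. Of the 12 calls of the first step, 6 held under every alternative (HMGCS1, STARD4, SC5D, IDI1, INSIG2 and FADS1), and of the 21 of the second step, 14 did. Scaled by library totals, the first step had 1 higher and 9 lower. The 3 higher calls of that step became 6 without day 1 replicate 2 and 1 without any other library of the 2 days, and the 9 lower became 5 without day 1 replicate 1 or 3. Over all genes, 4357 of 21366 were higher without day 1 replicate 2, in place of 3413 of 22245. Lower were 1913 of 21364 without day 1 replicate 1 and 1952 of 21368 without replicate 3, in place of 3668. The rise of SC5D in the second step was lost without day 1 replicate 1 or 3 or day 3 replicate 1.

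Between days 3 and 14 single steps called few members, in the part of the course where libraries of 1 day differed most. From day 3 to day 5, 3 rose and 1 fell (16.6% of all genes called, 10.3% higher and 6.33% lower), none of them under every alternative. Without day 5 replicate 2 the counts were 6 and 9, when 3307 and 4579 of 21362 genes were called over all. Without day 3 replicate 3 they were 1 and 0 (1775 and 1284 of 22441 genes). From day 5 to day 7, 2 rose and 4 fell (10.3% called, 5.32% higher and 5.02% lower), or 3 and 3 when scaled by library totals. Without day 5 replicate 2, 11 were lower, as were 1628 of 21362 genes over all. Without day 5 replicate 1 or any library of day 7, 1 was higher and 2 were lower. Of these calls the fall of ACAT2 from 85.5, 69.7 and 84.4 to 30.6, 24.9 and 31.1 CPM held under every alternative (log2 change -1.47, SE 0.25, edgeR adjusted p = 0.000271). From day 7 to day 10, 5 rose (CYP51A1, SC5D, INSIG2, STARD4 and ACACB) and 0 fell (7.67% called, 4.17% higher and 3.5% lower). By edgeR at an unadjusted p under 0.05, 5 members were lower in that step, DESeq2 called 3 lower, and scaling by library totals gave 3 higher and 3 lower. From day 10 to day 14, STARD4 and ACACB rose and 0 fell (3.74% called, 1.64% higher and 2.11% lower), with 0 lower at an unadjusted p under 0.05 and 0 lower by DESeq2. None of the calls of these last 2 steps held when each library was left out in turn. Without 1 library, 1 to 2 members were called higher from day 7 to day 10 and 0 to 1 from day 10 to day 14.

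GC content ran with several of these changes. The members' longest transcripts hold 34.4% to 65.3% G and C. Of day 1 against day 0, the 9 members called lower had a median GC content of 39.0% (34.4% to 46.5%) and the 21 not called a median of 56.0%. Pearson's r between log2 change and GC content was 0.80 over the 33 members. The relation was reversed for day 14 against day 7 (r = -0.77), where the 13 members called higher had a median of 41.1%, and it was weak for day 28 against day 0 (r = -0.18). Over all 21987 genes with a known GC content, Spearman's rho was 0.42, -0.52 and -0.16 in these 3 comparisons. For day 7 against day 0, the 11 members under 45% GC had a median log2 change of -2.46 and the 22 others -1.14. For day 14 against day 7 these medians were 1.44 and -0.10. At the median, members of low GC content thus fell further to day 7 and rose further from it. Pearson's r over the members was 0.54 for day 7 against day 0 and -0.78 for day 10 against day 7. These correlations are across genes of the same libraries and are given as descriptions. With per-library trends on GC content and length removed, all 12 calls of day 1 against day 0 and all 26 of day 28 against day 0 were kept. Of the 17 of day 14 against day 7, 15 were kept (HSD17B7 and ELOVL6 were lost), and the members called there were 18 higher in place of 13, with 4 lower. On the log2 scale, the rises became 1.29 for HMGCS1, 1.27 for MSMO1, 1.25 for SC5D, 1.08 for INSIG2, 0.79 for IDI1, 0.69 for CYP51A1 and 2.54 for ACACB. The falls became -0.62 for MVK, -0.44 for TM7SF2, -0.79 for FADS2 and -0.33 for ACLY.

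**Figure D5:**
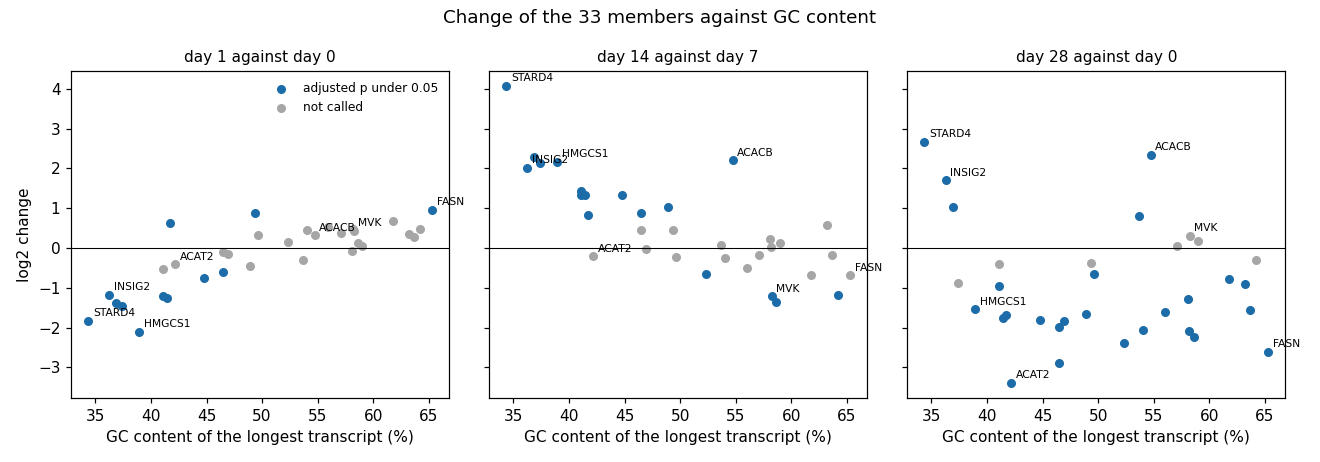
Each point is 1 of the 33 members, with the GC content of its longest transcript on the x axis and its log2 change on the y axis, in 3 comparisons. The points rise from left to right for day 1 against day 0 and fall for day 14 against day 7, whereas for day 28 against day 0 they show no clear slope.

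The make-up of the cultures also changed along the course. The summed level of 6 dividing cell genes was 1678 to 1901 CPM at day 0, 702 to 1006 at day 1 and 841 to 1627 at day 3. It was 454 to 504 CPM at day 7, 149 to 346 at day 14 and 227 to 495 at day 28. The sum was thus lower at days 7 and 28 than at day 0. From day 0 to day 1 it fell, when 9 members fell and 3 rose. It did not fall from day 1 to day 3, when 20 members fell and 1 rose. Nor did it rise from day 7 to day 14, when 13 members rose and 4 fell. All 6 dividing cell genes were called lower both at day 7 and at day 28 against day 0 (25.8% and 28.4% of all genes lower). The 7 cardiomyocyte markers summed to 14.8 to 15.2 CPM at day 0 and 30451 to 44427 at day 28. The 10 endoderm and liver markers summed to 393 to 436 CPM at day 7, then 650.1, 2717 and 3823 CPM in the 3 libraries of day 14, mostly AFP. At day 28 they summed to 131 to 283 CPM, where 9 of 10 were called lower than at day 14 (7.78% of all genes lower). At day 14 the order of this sum over the libraries was also the order of SCD (423, 587 and 829 CPM) and HMGCS1 (161, 169.5 and 245 CPM). In all, 12 of 33 members followed that order, and so did the sterol sum (1632.6, 1715.5 and 1835 CPM) and the fatty acid sum (1331, 1538 and 1954 CPM). It was not the order of STARD4 (241, 287 and 249.7 CPM), SC5D (633, 663 and 638 CPM) or ACACB (83.7, 58.0 and 77.3 CPM). The share of all genes in that order was not counted, so the 12 of 33 members cannot be set against a background. The sterol and fatty acid sums include members of the 12, such as HMGCS1 and SCD, and are not separate observations. The 4 endothelial markers summed to 351 to 366 CPM at day 0, 455 to 483 at day 7, 119 to 193 at day 14 and 31.2 to 45.8 at day 28. Of these 4, 3 were called higher from day 0 to day 7 (28.3% of all genes higher) and all 4 lower from day 7 to day 14 (19.5% lower). MVK and TM7SF2 rose and fell in the same steps. KDR held most of the endothelial sum at both days and read 346, 356 and 361 CPM at day 0 and 395, 373 and 349 at day 7. The 6 fibroblast markers summed to 2788 to 3236 CPM at day 28 against 361 to 604 at day 14. The 5 adipocyte markers summed to at most 2.78 CPM in any library, and 4 of the 5 did not pass the filter on low counts. Whether cell division or other cell types in the cultures account for part of the members' changes was not tested.

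Related genes outside the 33 were counted by list, and from each list at most 2 called genes per comparison are named by size of change. The 8 genes that supply NADPH and citrate to both routes fell for the most part. At day 28, 7 were lower than at day 0 and 1, the malic enzyme ME1, was higher, with a median log2 change of -2.06. Of all genes, 60.5% were called in this comparison, 28.4% lower and 32.1% higher. TKT, the transketolase of the pentose phosphate pathway, fell from 879.9 ± 35.1 to 41.0 ± 7.31 CPM, log2 change -4.42, edgeR adjusted p = 2.82e-11. IDH1, the cytosolic isocitrate dehydrogenase, fell from 827 ± 31.3 to 90.8 ± 3.94 CPM, log2 change -3.19, edgeR adjusted p = 1.83e-07. All levels in this paragraph are means ± SD with n = 3. Of 6 other lipogenic regulators, 4 were lower and the rest were not called, a share called near the 60.5% of all genes. The 4 include MID1IP1, which promotes acetyl-CoA carboxylase activity (124 ± 4.40 to 25.3 ± 4.35 CPM, log2 change -2.29, edgeR adjusted p = 1.76e-08), and PPARGC1B, a transcriptional coactivator (log2 change -1.26).

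Genes for the other elongation, desaturation and activation steps were split, with 5 of 17 tested higher and 5 lower at day 28 against day 0. Of all genes, 32.1% were higher and 28.4% lower. HACD1, the muscle form of the dehydratase that acts in chain elongation, rose from 13.8 ± 1.46 to 224 ± 22.5 CPM, log2 change 4.01, edgeR adjusted p = 5.97e-14. ACSL1, a long-chain acyl-CoA synthetase that commits fatty acids mainly to oxidation in the heart, rose from 18.1 ± 2.57 to 79.7 ± 3.72 CPM, log2 change 2.14, edgeR adjusted p = 1.53e-07. From day 7 to day 14, 10 of the 17 rose and 2 fell, where 41.5% of all genes were called and 22% were higher. They were led by ACSL4 (21.0 ± 1.50 to 156 ± 69.2 CPM, log2 change 2.89, edgeR adjusted p = 8.93e-06) and ACSL3 (69.8 ± 4.72 to 245 ± 13.2 CPM, log2 change 1.81, edgeR adjusted p = 0.00111). Among 15 genes of sterol transport, storage and efflux, 4 rose and 6 fell from day 0 to day 28 (60.5% of all genes called). SOAT1, which esterifies cholesterol for storage, rose from 4.62 ± 0.573 to 35.3 ± 8.96 CPM, log2 change 2.93, edgeR adjusted p = 3.43e-07, and the exporter ABCG1 from 3.70 ± 0.850 to 12.8 ± 3.57 CPM, log2 change 1.78, edgeR adjusted p = 0.000291. At day 7, LIPA, the lysosomal lipase that frees cholesterol from its esters, had fallen from 62.1 ± 1.68 to 10.3 ± 2.66 CPM, log2 change -2.61, edgeR adjusted p = 8.75e-08.

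Of the 11 genes that cut or degrade SREBP and its partners, 3 rose and 2 fell from day 0 to day 28. MBTPS2, the protease that releases the SREBP fragment from the membrane, rose from 6.29 ± 1.18 to 25.6 ± 4.58 CPM, log2 change 2.02, edgeR adjusted p = 0.000305. ERLIN1, an endoplasmic reticulum protein that takes part in sterol control, fell from 52.2 ± 1.20 to 15.1 ± 0.919 CPM, log2 change -1.79, edgeR adjusted p = 5.1e-06. In the 11 genes of the isoprenoid branches, which draw on the same precursor for ubiquinone, dolichol and protein prenylation, 2 rose and 4 fell. PDSS1, which builds the ubiquinone tail, fell from 23.01 ± 1.29 to 5.88 ± 2.40 CPM, log2 change -1.96, edgeR adjusted p = 4.33e-06. NUS1, a subunit of the enzyme that makes the dolichol chain, fell from 55.1 ± 5.38 to 21.2 ± 4.98 CPM, log2 change -1.37, edgeR adjusted p = 0.00197. In this comparison 60.5% of all genes tested were called, 28.4% lower and 32.1% higher. Counts such as 5 of 11 called, or 10 of 17 called at day 28, lie near that share of 60.5%. Those of the NADPH and citrate list (8 of 8) lie above it.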

How the data were processed

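RNA of the 23 libraries was prepared with a stranded total RNA kit and sequenced in pairs, per the labels' protocols. Per the submitters' processing notes and the series' design text, the authors trimmed reads to 50 bases with Trim Galore 0.65, aligned them to GRCh38 (hg38) with STAR 2.7.0 and counted them per gene with HTSeq against GENCODE v38. The strand setting is not given in the sources used here. The deposited table holds raw counts in 57521 rows. The 44 copies of pseudoautosomal Y genes, all at 0, were left out, which leaves 57477 genes, 56387 of them found in GENCODE v44, the source of symbols, positions, GC content and exon lengths.

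Genes were filtered with filterByExpr (minimum count 10, 22245 genes left), scaled by TMM and fitted over all 23 libraries with the day as a factor in edgeR 4.0.16 (quasi-likelihood, robust, R 4.3.3, limma 3.58.1). A call is an adjusted p under 0.05 (Benjamini-Hochberg over all genes tested). The SE is the absolute log2 change divided by the square root of the F statistic. RPKM divides the scaled CPM by exon length. The fit was also run on simulated counts. These were drawn independently for each gene and library, without the axis of variation within days that ran with GC content. That run therefore cannot show how this axis affects the calls. Depth ran from 4330334 to 22089595 counts a library, which limits the precision of low genes, and CYP51A1 is the member that it limits most.

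The members and gene lists were chosen with earlier results of these data known. From each list outside the members, up to 2 called genes per comparison with the largest change and at least 5 CPM on the higher day were eligible to be named. Alternatives were scaling by RLE factors, by upper quartiles or by library totals, DESeq2 1.42.0, other filters on low counts, a fit of the 2 days alone, a replicate block and leaving out each library. The comparisons of day 7 with day 0 and of day 14 with day 7, the analysis without 4 libraries (the highest score of days 1, 3, 5 and 10 on the main axis of variation within days), and the removal of GC and length trends were added after seeing the data.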

Additional observations from a re-analysis of the deposited data

How the results depend on the processing

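In the 8 comparisons set by the design, 45 of 80 calls of members held under every alternative run, and 48 held whenever 1 library was left out. For day 28 against day 0, 22 of 26 held under every alternative, and of the comparisons chosen after seeing the data 25 of 26 held for day 7 against day 0 (FADS1 was lost) and 12 of 17 for day 14 against day 7. For values not called, only the side of the threshold was followed. Where a count below moved, the cause was not tested, apart from the smaller number of libraries where libraries were left out.

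Counts of members called under one alternative are given with the count of the text in brackets. Here and below, counts over all genes moved between alternatives too, so a moved count is not by itself a trait of the members. Scaled by library totals, day 1 against day 0 had 1 higher (3), day 10 against day 7 had 3 higher (5) and 3 lower (0), and day 28 against day 14 had 0 higher (1) and 5 lower (3). The summed level then read 1934 CPM at day 1 and 1061 at day 7 for sterol synthesis and 4474 and 1579 CPM for fatty acid synthesis. With upper-quartile factors, 1 was higher for day 7 against day 5 (2) and 0 for day 28 against day 14 (1). With no filter, day 5 against day 3 had 1 higher (3) and 2 lower (1), day 7 against day 5 had 2 lower (4) and day 10 against day 7 had 2 lower (0). With at least 1 CPM in 3 libraries, 1 was higher for day 1 against day 0 (3), 2 were lower for day 5 against day 3 (1), 2 were lower for day 10 against day 7 (0) and 0 were higher for day 28 against day 14 (1). DESeq2 called 2 lower for day 5 against day 3 (1) and 3 lower for day 10 against day 7 (0).

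Fitted on the libraries of the 2 days alone, 5 were higher for day 1 against day 0 (3), 0 higher (3) and 0 lower (1) for day 5 against day 3, 0 higher (2) and 1 lower (4) for day 7 against day 5, 9 higher (5) and 5 lower (0) for day 10 against day 7, 5 higher for day 14 against day 10 (2), 4 higher (1) and 8 lower (3) for day 28 against day 14, 6 higher for day 7 against day 0 (2) and 8 lower for day 14 against day 7 (4). Without the 4 libraries (day 1 replicate 2, day 3 replicate 1, day 5 replicate 2 and day 10 replicate 1), 11 were higher for day 1 against day 0 (3), 7 higher (3) and 8 lower (1) for day 5 against day 3, 6 higher (2) and 16 lower (4) for day 7 against day 5, 8 higher (2) and 1 lower (0) for day 14 against day 10, 4 higher (1) and 6 lower (3) for day 28 against day 14, 4 higher for day 7 against day 0 (2) and 7 lower for day 14 against day 7 (4). With GC and length trends removed, 0 were higher for day 3 against day 1 (1), 3 lower for day 5 against day 3 (1), 13 lower for day 7 against day 5 (4), 3 lower for day 10 against day 7 (0), 5 higher for day 14 against day 10 (2), and 4 higher (1) and 7 lower (3) for day 28 against day 14. Without the 4 libraries, 3154 of 22020 genes were lower for day 7 against day 5, in place of 1117 of 22245. For day 1 against day 0, 5169 were then higher in place of 3413. In the fit of 2 days, 2384 of 16813 genes were higher for day 10 against day 7, in place of 928. For day 5 against day 3 that fit had fewer, with 846 of 16763 higher in place of 2290.

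A sign turned and passed the threshold in 4 cases. STARD4 was at 0.86 for day 7 against day 5 without the 4 libraries (edgeR adjusted p = 0.00502). With GC and length trends removed, PMVK was at -0.52 for day 1 against day 0 (0.0132) and -0.53 for day 7 against day 0 (0.00807), and MVD at 0.57 for day 14 against day 7 (0.00398).

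Leaving out 1 library at a time gave these lowest and highest counts: 1 to 6 higher and 5 to 8 lower for day 1 against day 0, 0 to 1 and 15 to 17 for day 3 against day 1, 1 to 6 and 0 to 9 for day 5 against day 3, 1 to 3 and 2 to 11 for day 7 against day 5, 1 to 2 and 0 to 1 for day 10 against day 7, 0 to 1 and 0 to 0 for day 14 against day 10, 0 to 1 and 2 to 3 for day 28 against day 14, 4 to 5 and 18 to 20 for day 28 against day 0, 2 to 3 and 23 to 24 for day 7 against day 0, and 9 to 12 and 4 to 4 for day 14 against day 7. Replicate numbers showed no clear pairing of libraries across days: correlations of deviations from the day means ran from -0.46 to 0.28, and no comparison had every pair above 0.1. With 2 or 3 libraries a day, this check cannot exclude a shared origin. With the replicate number as a block, 0 members were higher for day 28 against day 14 in place of 1, and the other counts moved by no more than 1.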
